A study of Mus musculus with 22 samples.

Results

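The step from young adulthood to middle age was followed in microglia of female mice, at 52 against 8 weeks of age. Members were the 8 of 22 RNA-seq libraries whose labels give the sex as female and the age as one of these: 5 libraries labelled 52 weeks (50 to 54 weeks of age) and 3 labelled 8 weeks (6 to 10 weeks). The labels alone define them, but the members and the gene lists used below were chosen with earlier results of these data known. All mice of the series were C57BL/6J, an inbred laboratory strain, and untreated, and every sample title carries the tag SPF, which the labels do not spell out. Every library was made from CD11b-positive, CD45-low, lineage-negative cells sorted from the whole brain, so brain regions were mixed in each of them. The remaining 14 libraries come from females of 96 to 104 weeks (3) and from males of the same 3 ages (3, 5 and 3), in a series that asks how sex bears on microglia as the brain ages. Libraries are called by age and replicate number, 8-week females 1, 3 and 4 and 52-week females 2, 3, 4, 5 and 6, and values per library are listed in that order. The labels do not say whether a library came from 1 animal or whether libraries of an age came from separate animals, so every p-value speaks of library-to-library spread alone, which may be technical.

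Microglia are the resident macrophages of the brain. They renew themselves by local division, survey the tissue with fine processes guided by purine receptors, and keep their adult identity through signals such as TGF-beta and the growth factor receptor Csf1r. In ageing, injury and degeneration they can take up a disease-associated state with genes of lipid handling and phagocytosis, or respond to interferon. Like most cells they carry a circadian clock, in which Arntl and Clock switch on the genes of their own repressors (the Per, Cry and Nr1d families) and output genes such as Dbp and Tef.

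The libraries held 19283685 to 23688757 reads at 8 weeks and 18545979 to 34371851 at 52 weeks (exact permutation test of the means, two-sided, p = 1). Microglial genes were abundant at both ages. The summed level of the 29 homeostatic microglia genes in the table lay between 2216230.0 and 2223810.0 normalized counts at 8 weeks and between 2115920.0 and 2223670.0 at 52 weeks, with no member at 0. On the first principal component of the female libraries of both ages (28.3% of the variance) the 8-week libraries lay at -64.2 to -43.9 and the 52-week libraries at 23.8 to 38.8. With all 22 libraries, the 8-week females lay at 54.0 to 74.8 on the second component (12.5% of the variance). Every other library lay at 21.9 or below on it, 8-week males (4.33 to 21.9) included. Library 2 of the 52-week females stood apart in several ways. It had 42.4 normalized counts of Xist, the RNA of the inactive X chromosome, where the other 7 libraries had 2321 or more, and 652 of S100a9, 678 of S100a8, 644 of Ltf and 339 of Lcn2, transcripts of neutrophils that reached at most 3.74 in any of the other 7. Of the Y chromosome's genes Uty, Kdm5d, Eif2s3y and Ddx3y it had 0 reads, against 187 normalized counts or more in every one of the 11 male libraries. Its Xist level thus departs from that of the other females and its lack of Y-linked reads does not, and it is called a female by its label. The summed level of 9 neutrophil markers was 2902 in it, 2.55 to 9.70 in the other 52-week females and 0 to 11.2 at 8 weeks.

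Other cell types were scarce by their defining markers, with a few shifts between the ages. Astrocyte markers summed to 4729 to 5723 normalized counts at 8 weeks and 6957 to 7982 at 52 weeks, and most of this came from the glutamate transporter gene Slc1a3, which rose from 5242 ± 562 to 7040.0 ± 241 (log2 difference 0.43 ± 0.10, limma adjusted p = 0.0111; 0.0931 without 8-week female 4). The astrocyte genes Aqp4 and Gfap had at most 44.7 and 48.1 normalized counts in any of the 8. All 12 astrocyte markers tested lay above 0, with a median of 1.45 against 0.02 for all genes. Of them 1 passed by limma, 2 by edgeR and 3 by DESeq2, and 5 had an unadjusted p below 0.05. Oligodendrocyte markers summed to 3765 to 4711 at 8 weeks and to 5092 to 5592 at 52 weeks, with none of 7 passing by limma or edgeR, 2 by DESeq2 or without 8-week female 3, and 3 at an unadjusted p below 0.05. Neuronal markers summed to 83.5 to 167 and 149.5 to 320.3. These sums overlapped, and of 9 neuronal markers tested 5 lay above 0 and 1 passed. This was the synaptic vesicle gene Syp, which rose from 18.98, 42.5 and 15.0 to 90.5, 99.1, 74.0, 199 and 74.8 (log2 difference 2.07 ± 0.38, adjusted p = 0.00123). B cell markers summed to 8125 to 10062 at 8 weeks and to 7864 to 9826 at 52 weeks, again overlapping. Of the 2 tested, the adaptor gene Blnk differed by 0.08 ± 0.09 (adjusted p = 0.642) and the antigen receptor gene Cd79b fell by 0.57 ± 0.16 (adjusted p = 0.0248; 0.190 without 8-week female 4 and 0.0623 without 52-week female 2), and 1098 normalized counts was its mean at 52 weeks. The B cell genes Ms4a1 and Pax5 were at 0 in every 8-week library, and Ms4a1 was at 0 in every 52-week library too. For any of these cell types, bulk RNA cannot tell a change in cell number from a change in RNA per cell. Of 37 tested markers of oligodendrocyte precursors, endothelium, pericytes, ependyma, border-associated macrophages, monocytes, neutrophils, T and NK cells and erythroid cells, none passed by limma or edgeR, 6 passed by DESeq2 and 1 had an unadjusted p below 0.05. What part the astrocyte, oligodendrocyte and neuronal markers had in the gene differences below was not tested.

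Of 12552 genes tested, 745 were higher and 444 lower at 52 than at 8 weeks by the limma test with Benjamini-Hochberg adjustment at 0.05, or 9.47% of all (5.94% higher and 3.54% lower). Differences are given on the scale of log2(normalized count + 1) ± SE of the fit, which understates those of low genes. A difference of more than 1 on that scale was reached by 269 of the higher and 53 of the lower genes, so the larger changes were mostly rises. The groups did not overlap in 2452 genes, 19.5% of those tested (9.66% higher and 9.87% lower). The median over all genes was 0.02. The counts rested in part on single 8-week libraries: 437 were higher and 199 lower without 8-week female 4, 519 and 216 without 8-week female 1, and 560 and 233 without 8-week female 3. Without 52-week female 2 they were 627 and 320. The trend with base composition also differed between these female groups. The deviations of each library from the mean correlated, across genes, with transcript GC content at -0.107 to -0.0735 in the 8-week and 0.0191 to 0.129 in the 52-week females (exact permutation test of the means, two-sided, p = 0.0357, the smallest that 5 against 3 allow). In males the same correlations overlapped between the ages, at -0.0645 to 0.0153 at 8 weeks and -0.170 to 0.0738 at 52 weeks. With each library's trends of GC content and transcript length removed 514 genes were higher and 284 lower in females.

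**Figure D1:**
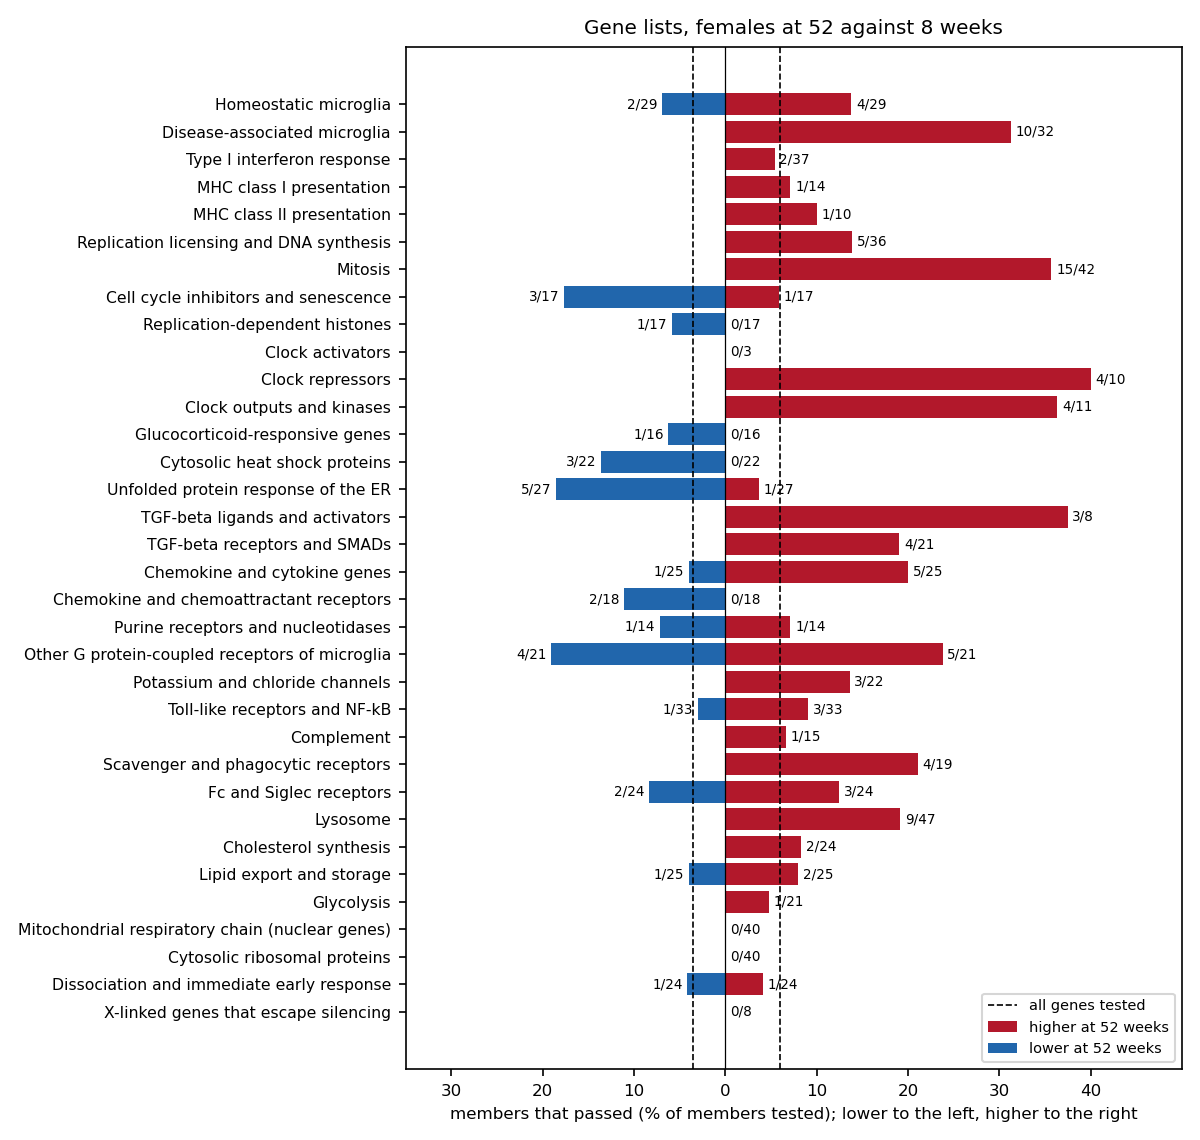
Members of each gene list that passed, as a percentage of its members tested, higher at 52 weeks to the right (red) and lower to the left (blue), with counts beside the bars and dashed lines at 5.94% and 3.54% for all genes tested. Mitosis (15 of 42 higher), clock repressors (4 of 10) and disease-associated microglia (10 of 32) reach far to the right, and the heat shock and unfolded protein lists lean to the left.

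The largest rises went to genes with few reads at 8 weeks. By a rule on size, level and separation 14 genes stood at the top, from Zfp641, a zinc finger gene, at 4.88 ± 0.63 down to Zkscan2, another, at 3.48 ± 0.85. In every one the lowest 52-week library lay above the highest 8-week library, as the rule demands. They include a potassium channel, a membrane protein of the immunoglobulin family, signalling enzymes, nuclear receptors and members of the tumour necrosis factor families.

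Kcnj12 encodes an inwardly rectifying potassium channel (mm10 chromosome 11, 61022564 to 61071131, plus strand). It had 7.82, 29.4 and 11.2 normalized counts in the 8-week and 547, 337, 436, 317 and 506 in the 52-week libraries, a log2 difference of 4.82 ± 0.56 (adjusted p = 5.38e-06). Ildr2, a gene for an immunoglobulin-like membrane protein (chromosome 1, 166254139 to 166316823, plus strand), had 22.3, 170.1 and 51.1 against 644, 942, 938, 924 and 793, a log2 difference of 3.83 ± 0.37 (adjusted p = 2.53e-07). Both genes were low but uneven at 8 weeks, with 8-week female 3 the highest in each case, and at a common high level at 52 weeks. Tnfsf8, the gene of the CD30 ligand (chromosome 4, 63831308 to 63861347, minus strand), was even at 8 weeks with 11.2, 7.09 and 9.97 and rose to 101, 174, 107, 193 and 115, a log2 difference of 3.71 ± 0.28 (adjusted p = 1.04e-08). Dlg5, which encodes a scaffold protein of cell junctions (chromosome 14, 24133953 to 24245920, minus strand), had 21.2, 1.01 and 0 and then 134, 50.6, 103, 55.1 and 163 (log2 difference 4.70 ± 0.68, adjusted p = 9.31e-05). Its 8-week level came almost wholly from female 1.

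The rule also named genes of signalling enzymes and receptors. Prkaa2, the gene of a catalytic subunit of the energy sensor AMPK, averaged 5.81 ± 8.201 normalized counts at 8 weeks and 91.5 ± 36.7 at 52 weeks (log2 difference 4.55 ± 0.73, adjusted p = 3.17e-04), with 52-week female 6 far above its group at 155. Prkcz, an atypical protein kinase C gene, rose by 4.03 ± 0.66 (adjusted p = 4.77e-04). Cd40, a receptor of antigen-presenting cells that meets its ligand on T cells, had 7.82, 1.01 and 0 at 8 weeks and 103, 66.5, 33.2, 25.4 and 69.7 at 52 weeks (log2 difference 4.37 ± 0.79, adjusted p = 0.00114). Every 52-week library was at or above 25.4, well clear of the younger ones, yet they spread over a wide range. The nuclear receptor genes Rxrg (retinoid X receptor gamma, 4.28 ± 0.82, adjusted p = 0.00194) and Thrb (thyroid hormone receptor beta, 3.96 ± 0.78, adjusted p = 0.00235) rose too. So did Zfp641 (adjusted p = 2.80e-05), Pdzrn4, a gene with PDZ and RING domains (4.40 ± 0.73, adjusted p = 4.93e-04), and Emp2, a membrane protein gene (3.88 ± 0.80, adjusted p = 0.00368). The matricellular gene Sparcl1 (3.74 ± 0.99, adjusted p = 0.0184) missed the threshold without 8-week female 1 (0.0645), without 8-week female 3 (0.103) and with a pseudocount of 0.25 (0.0511), and Zkscan2 (adjusted p = 0.0112) missed it without 8-week female 3 (0.116). The other 12 passed under every alternative run.

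Several well expressed genes rose with little spread. Of these Pde2a, Lag3, Lars2 and Tmbim6 were chosen after their values were seen. Pde2a, the gene of a cyclic nucleotide phosphodiesterase that cGMP activates (chromosome 7, 101421691 to 101512827, plus strand), had 578, 804 and 501 normalized counts at 8 weeks and 5016, 4881, 5456, 4301 and 5351 at 52 weeks, a log2 difference of 3.02 ± 0.14 (adjusted p = 8.43e-13). Cd22, an inhibitory sialic acid receptor known to hold back microglial phagocytosis (chromosome 7, 30865402 to 30880342, minus strand), went from 283, 396 and 384 to 1362, 1416, 1337, 1871 and 1591, a difference of 2.10 ± 0.17 (adjusted p = 2.82e-08). Lag3, an inhibitory receptor of the CD4 family (chromosome 6, 124904361 to 124911705, minus strand), went from 566, 689 and 779 to 2264, 2212, 2445, 3055 and 2836, or 1.92 ± 0.16 (adjusted p = 4.89e-08). In these 3 genes the ages lay far apart and the libraries of an age close together. Lars2, which encodes the mitochondrial leucyl-tRNA synthetase (chromosome 9, 123366927 to 123462666, plus strand), was among the most abundant, at 7401 ± 720.1 and 24745 ± 4593 (1.73 ± 0.16, adjusted p = 1.83e-07). Tmbim6, an inhibitor of cell death in the endoplasmic reticulum (chromosome 15, 99392882 to 99410049, plus strand), rose by 0.83 ± 0.07 (adjusted p = 5.69e-08). All 5 kept their calls under every alternative run. At 96 to 104 weeks the mean level in females was 5800.0 ± 442 for Pde2a, 2097 ± 358 for Cd22, 3427 ± 999 for Lag3 and 9665 ± 332 for Lars2, so Lars2 alone of these 4 stood nearer its 8-week level.

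**Figure D2:**
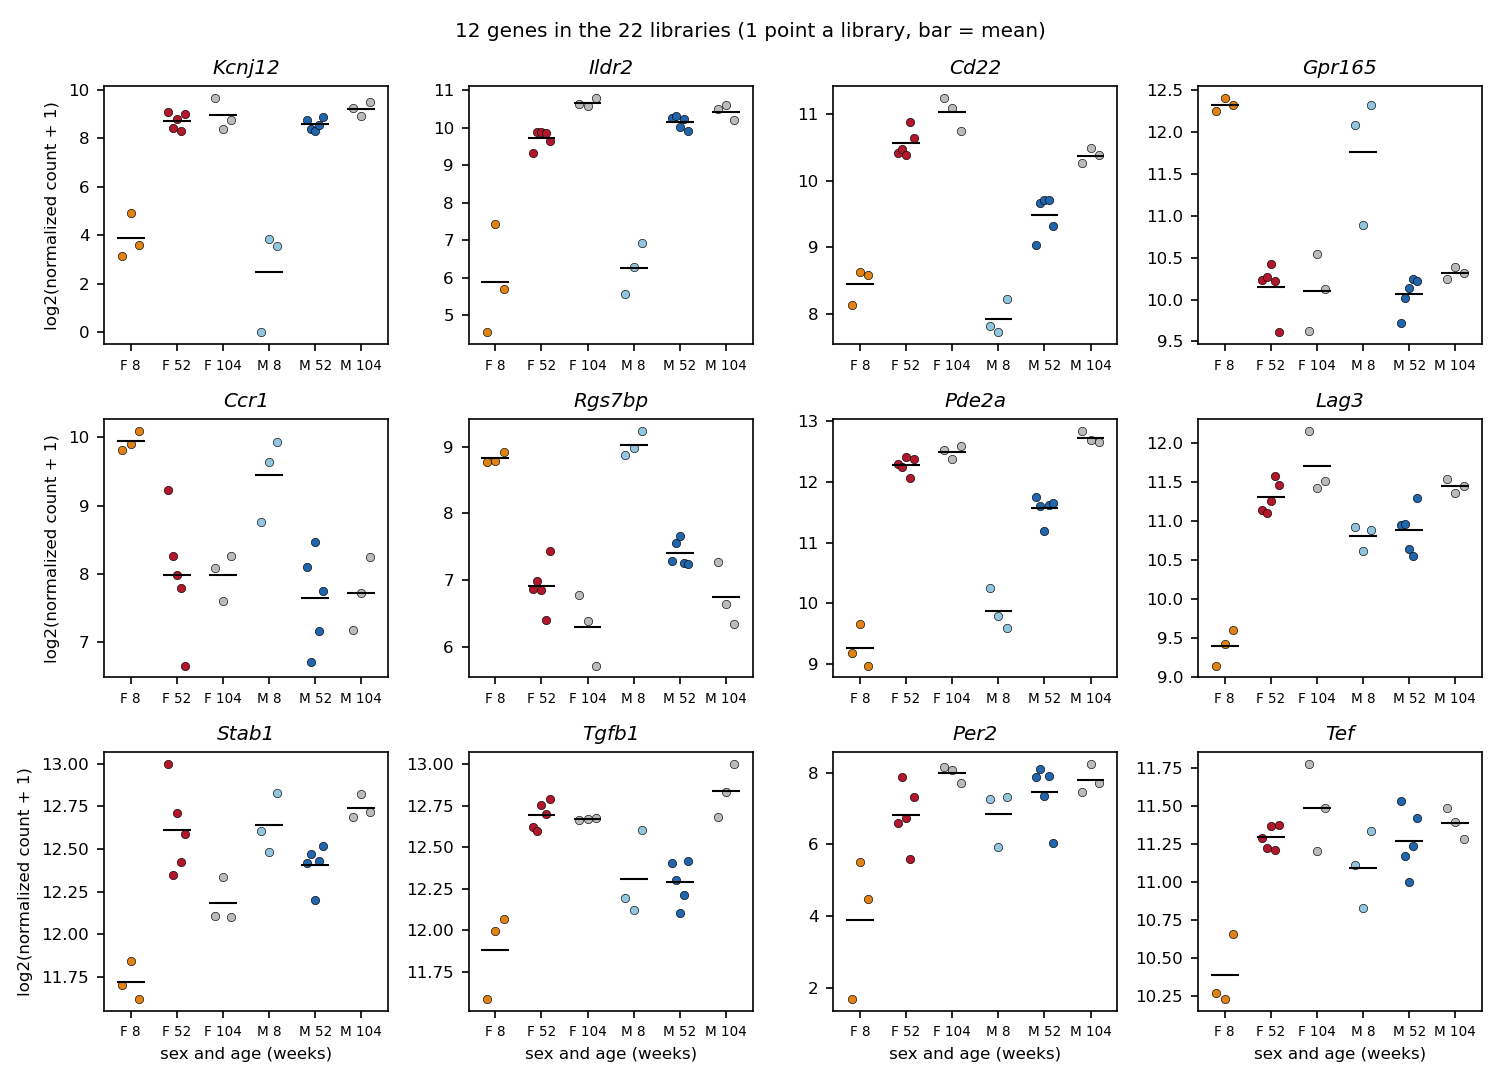
Log2(normalized count + 1) of 12 genes in the 22 libraries by sex and age in weeks, 1 point a library with a bar at the group mean. For all 12 genes the points of the females at 8 weeks (orange) and 52 weeks (red) do not overlap; Gpr165, Ccr1 and Rgs7bp fall and the other 9 rise.

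Far fewer genes fell steeply. By the same rule Gpr165, Ccr1 and Rgs7bp were among those named, beside Gnat1, a rod photoreceptor gene described below. Gpr165, an orphan G protein-coupled receptor gene (chromosome X, 96713441 to 96719388, plus strand), had 4841, 5424 and 5105 normalized counts at 8 weeks and 1201, 1229.8, 1373, 1195 and 779 at 52 weeks, a log2 difference of -2.17 ± 0.23 (adjusted p = 1.32e-06). Ccr1, a receptor for inflammatory chemokines (chromosome 9, 123962124 to 123968692, minus strand), fell from 902, 955 and 1089 to 599, 306, 251, 221 and 100.1 (-1.95 ± 0.41, adjusted p = 0.00433). Rgs7bp, whose product anchors regulators of G protein signalling at the membrane (chromosome 13, 104945904 to 105054930, minus strand), fell from 435, 441 and 484 to 116, 126, 115, 83.6 and 172 (-1.92 ± 0.26, adjusted p = 4.71e-05). The groups stood well apart for all 3 genes, but Ccr1 spread widely at 52 weeks, with female 2 highest and female 6 lowest.

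Dlc1, a gene for a GTPase-activating protein, fell from 173 ± 13.98 to 59.2 ± 33.2 (-1.70 ± 0.42, adjusted p = 0.0117), and the RNA helicase gene Dhx9 from 366 ± 15.5 to 141 ± 48.9 (-1.45 ± 0.30, adjusted p = 0.00319). Ankrd16, an ankyrin repeat gene, fell from 159 ± 6.502 to 64.3 ± 24.3 (-1.41 ± 0.33, adjusted p = 0.00828). These 6 falls passed under every alternative run. Ppp2r3a, a regulatory subunit of protein phosphatase 2A (-1.45 ± 0.35, adjusted p = 0.0102), did not pass without 8-week female 1 (0.0578) or with the replicate number as a block term (0.0776). The rule also named 5 genes whose calls were lost in 6 or more of the 19 alternatives: Dmrtb1 (-2.20 ± 0.62, adjusted p = 0.0245), the endothelin receptor gene Ednrb (-3.28 ± 0.94, 0.0282), Fam196a (-1.54 ± 0.48, 0.0448), the DNA polymerase zeta gene Rev3l (-1.38 ± 0.44, 0.0497) and Phtf1os (-1.38 ± 0.41, 0.0344), an antisense gene whose reads cannot be told from those of the genes opposite, since no strand setting is stated. Dmrtb1 did not pass with 8-week female 3 or 4, or 52-week female 4 or 6 left out (adjusted p = 0.0522 to 0.143), with no filter on low values (0.0521) or with the replicate number as a block term (0.0788). Ednrb missed the threshold with 8-week female 1, 3 or 4, or 52-week female 2, 5 or 6 left out (adjusted p = 0.0539 to 0.103) or under 5 settings of the processing (0.0539 to 0.141). For Fam196a the call was lost with 8-week female 1, 3 or 4, or 52-week female 3, 4 or 5 left out (adjusted p = 0.0530 to 0.136) or under 6 settings of the processing (0.0560 to 0.0908). The call of Rev3l was lost with 8-week female 1, 3 or 4, or 52-week female 2, 4, 5 or 6 left out (adjusted p = 0.0540 to 0.207) or under 9 settings of the processing (0.0501 to 0.256). Phtf1os did not pass with 8-week female 3 or 4, or 52-week female 2, 3 or 6 left out (adjusted p = 0.0623 to 0.152) or under 4 settings of the processing (0.0620 to 0.117).

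Steep falls were also seen in genes of rod photoreceptors, cells of the retina and not of the brain. Gnat1 encodes the rod transducin, the G protein of light detection (chromosome 9, 107674474 to 107679712, minus strand). It had 118, 143 and 182 normalized counts at 8 weeks and 1 read at 52 weeks, in female 3, a ratio of 707 with an exact 95% counting interval of 126 to 28008. Such intervals, and the floors used below, cover counting error only. Its reads were thus present in every 8-week female and all but absent at 52 weeks.

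Of 11 rod genes described here, 9 were higher in each of the 3 8-week females than in all other 19 libraries of the series, males of 8 weeks included. What share of all genes separates in this way was not counted. The filter on low values kept 7 of the 11 rod genes, and 3 of these, Gnat1, Prph2 and Pdc, reached 10 normalized counts in the 8-week females alone. They entered the test only through the group where they are high, so the rod genes are described by their values and no test of them is given. These 3 genes remain in the counts of lower genes given above. Prph2, a protein of the disc rim, had 33.5, 28.4 and 37.4 at 8 weeks and Pdc, the G protein inhibitor phosducin, 21.2, 29.4 and 19.9, and both had 0 reads in the other 19 libraries, which puts them at least 50.7-fold and 36.0-fold higher at 8 than at 52 weeks, against a floor of 3 reads over the 52-week group. The calcium sensor gene Rcvrn (at least 14.9-fold) and the transducin subunit gene Gngt1 (at least 16.8-fold) also had no read at 52 weeks. Rbp3, a retinoid carrier gene outside the list that was looked up after its values were seen, had 113 reads at 8 weeks and 2 at 52 weeks, a ratio of 102 (exact 95% counting interval 27.5 to 849.9). The arrestin gene Sag stood at 52.5 to 61.1 at 8 weeks with up to 28.6 elsewhere, and Rom1 overlapped between the ages (20.1, 30.4 and 38.6 and 25.2, 23.6, 26.8, 22.2 and 29.1). Pde6b, a subunit of the rod phosphodiesterase, had 20.1, 43.5 and 29.9 and 1.15, 0.693, 5.10, 10.6 and 2.53. The rod genes summed to 307 to 439 normalized counts at 8 weeks and to 32.1 to 66.7 at 52 weeks. The labels name whole brain as the source. Which cells the rod gene reads came from, and what part such material had in other differences between the ages, was not tested.

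**Figure D3:**
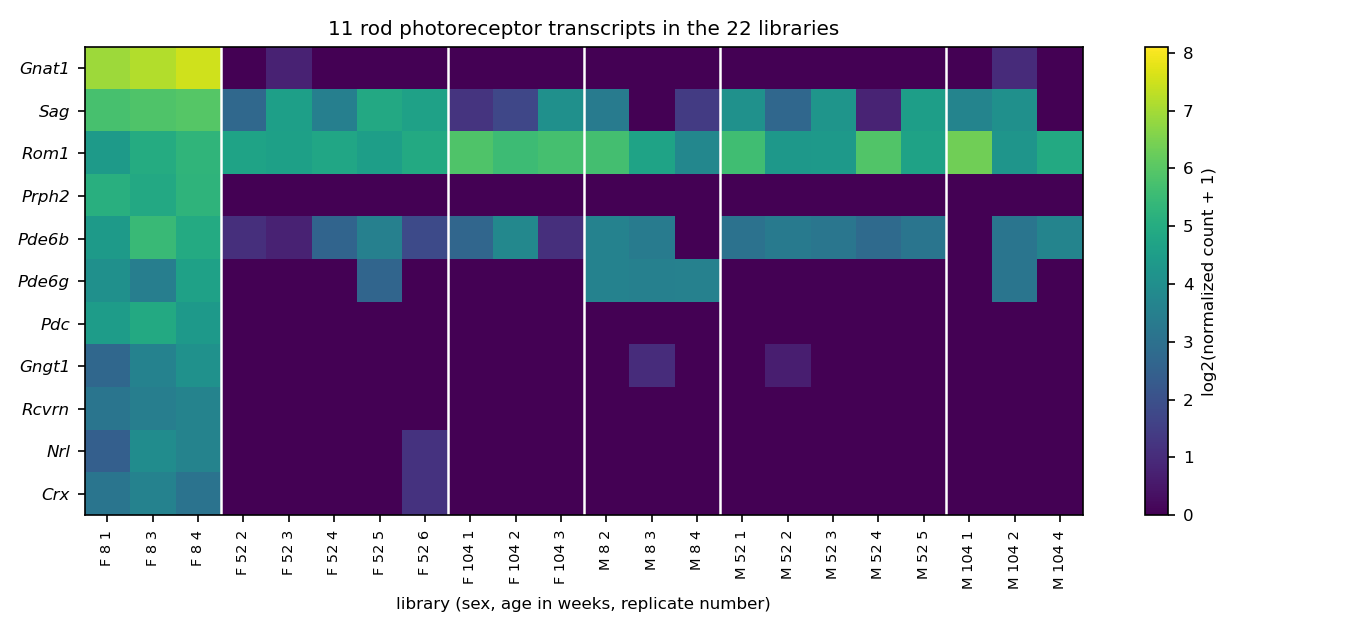
Log2(normalized count + 1) of 11 rod photoreceptor genes in each of the 22 libraries (colour), grouped by sex and age in weeks. The 3 libraries of females at 8 weeks, at the left, are bright for Gnat1 and most other genes, while Prph2 and Pdc have no read in the other 19.

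Homeostatic genes, the signature of resting microglia, moved in both directions, and those that passed did so by small amounts. Of 29 tested 4 rose and 2 fell, with a median of 0.03. P2ry12, the ADP receptor that steers microglial processes, had 278342, 276722 and 273501 normalized counts at 8 weeks and 215990.0, 218440.0, 224810.0, 224152 and 200606 at 52 weeks, a fall of 0.35 ± 0.09 (adjusted p = 0.0154). Ltc4s, the leukotriene C4 synthase gene, fell by 0.53 ± 0.15 (adjusted p = 0.0246). Sall1, the transcription factor of microglial identity, rose from 11058 ± 369 to 14426 ± 1269.9 (0.38 ± 0.09, adjusted p = 0.0131), as did the fructose transporter gene Slc2a5 (0.38 ± 0.08, adjusted p = 0.00659), the adhesion receptor gene Adgrg1 (0.36 ± 0.09, adjusted p = 0.0117) and Tgfbr2, described with its pathway. Without 8-week female 1 all 6 calls were lost. P2ry12 missed the threshold with 8-week female 1, 3 or 4 left out (adjusted p = 0.0518 to 0.0571) or with the length and GC trend removed (0.452). For Ltc4s the call was lost with 8-week female 1 or 4, or 52-week female 2 or 3 left out (adjusted p = 0.0503 to 0.139) or with the replicate number as a block term (0.0955). The call of Sall1 was lost without 8-week female 1 (adjusted p = 0.0610). Slc2a5 did not pass without 8-week female 1 (adjusted p = 0.0540). Adgrg1 missed the threshold without 8-week female 1 (adjusted p = 0.0738) or with the length and GC trend removed (0.247). Of the best known members, Tmem119 (0.17 ± 0.08, adjusted p = 0.180), Cx3cr1 (-0.12 ± 0.08, 0.370) and Csf1r (0.03 ± 0.09, 0.890) did not pass.

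Of 32 disease-associated genes 10 rose and none fell (median 0.28), but the lipid genes best known from that state were not among them. Cst7, a cysteine protease inhibitor, had 358, 243 and 251 normalized counts at 8 weeks and 640.5, 500.3, 562, 695 and 661 at 52 weeks (1.12 ± 0.22, adjusted p = 0.00233). Lyz2, the lysozyme gene, had 3639, 3532 and 2943 and 4842, 7193, 4733, 8656 and 6241 (0.88 ± 0.17, adjusted p = 0.00207). Neither gene overlapped between the ages, and both calls held under every alternative run. Clec7a, a receptor for fungal glucans, rose from 769 ± 188 to 1469 ± 382 (0.93 ± 0.23, adjusted p = 0.0117; 0.102 without 8-week female 4). Itgax, the CD11c integrin gene, rose by 1.37 ± 0.34 (adjusted p = 0.0131), although its groups overlapped, with 8-week female 3 at 319. For Itgax the call was lost with 8-week female 1 or 4 left out (adjusted p = 0.0625 to 0.120) or with the replicate number as a block term (0.0554). Axl, a receptor for dying cells, rose by 1.205 ± 0.36 (adjusted p = 0.0333), and its groups overlapped too. The call of Axl was lost with 8-week female 3 or 4, or 52-week female 3, 5 or 6 left out (adjusted p = 0.0710 to 0.143) or under 4 settings of the processing (0.0515 to 0.0872). Apoe had 8186, 6460.4 and 6329 at 8 weeks and 5496, 8812, 3679, 13212 and 10606 at 52 weeks (0.13 ± 0.31, adjusted p = 0.844), so its 52-week libraries lay on both sides of the younger ones. Lpl (-0.59 ± 0.29, adjusted p = 0.217) and Trem2 (0.11 ± 0.09, adjusted p = 0.479) did not pass. The list count was 4 without 8-week female 4 and 5 with the length and GC trend removed.

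Interferon and antigen presentation genes were close to the background share of genes that passed, while most of them lay above 0. Of 37 type I interferon genes 29 lay above 0 (median 0.24) and 2 passed, both higher. Both encode cytosolic RNA sensors of the RIG-I family. Dhx58 rose from 376, 409 and 277 to 534, 615, 681, 697 and 775 (0.91 ± 0.18, adjusted p = 0.00211) with no overlap. Ifih1 rose by 0.79 ± 0.18 (adjusted p = 0.00770; 0.0729 without 8-week female 4 and 0.0669 with the replicate number as a block term). Ifit3, a classical target, had 396, 272 and 274 at 8 weeks and 279.6, 546, 607, 457 and 533 at 52 weeks (0.60 ± 0.37, adjusted p = 0.342), with the ages overlapping. Of 14 MHC class I genes 12 lay above 0 (median 0.22), and of 10 class II genes all 10 did (median 0.33). In each list 1 gene passed, Tapbp and H2-DMa, both higher. Both calls were lost without 8-week female 4 or 52-week female 3, and the class I count was 3 without 52-week female 2. H2-D1 (0.53 ± 0.17, adjusted p = 0.0502) and the invariant chain gene Cd74 (0.38 ± 0.19, adjusted p = 0.231) did not pass.

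TGF-beta signalling, which keeps microglia in their adult state, had several members higher and none lower. Of 8 genes of ligands and activators 3 rose (median 0.38), and of 21 genes of receptors and SMADs 4 rose (median -0.02). The first count was 1 with the length and GC trend removed, and the second was 2 without 8-week female 1 or 8-week female 4. The ligand gene Tgfb1 (chromosome 7, 25687002 to 25705077, plus strand) had 3073, 4077 and 4282 normalized counts at 8 weeks and 6295, 6194, 6914, 6662 and 7089 at 52 weeks, a log2 difference of 0.81 ± 0.11 (adjusted p = 4.46e-05). All 52-week libraries lay within a narrow band above the younger ones, of which female 1 was lowest. The activators Itgb5, an integrin subunit (0.36 ± 0.06, adjusted p = 3.15e-04; 0.189 with the length and GC trend removed), and Thbs1, thrombospondin 1 (1.23 ± 0.37, adjusted p = 0.0357), rose. Thbs1 did not pass with 8-week female 3 or 4, or 52-week female 3, 4 or 5 left out (adjusted p = 0.0566 to 0.219) or under 4 settings of the processing (0.0513 to 0.0697).

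On the receiving side, the co-receptor gene Eng (endoglin) had 1741, 2271 and 1835 at 8 weeks and 2774, 3047, 3099.9, 3192 and 3093 at 52 weeks (0.65 ± 0.11, adjusted p = 5.12e-04). Ski, whose product represses SMAD targets, rose from 5450.3, 6791 and 5899 to 11151, 10404, 11463, 8567 and 11062 (0.80 ± 0.11, adjusted p = 4.71e-05). Neither overlapped between the ages, and both held under every alternative run, as did Tgfb1. The type 2 receptor gene Tgfbr2 rose by 0.34 ± 0.09 (adjusted p = 0.0171; 0.0813 without 8-week female 1 and 0.0685 without 8-week female 4) and the signal carrier gene Smad3 by 0.43 ± 0.13 (adjusted p = 0.0341). Smad3 missed the threshold with 8-week female 1, 3 or 4, or 52-week female 3, 4 or 6 left out (adjusted p = 0.0682 to 0.112), with no filter on low values (0.0517), with the replicate number as a block term (0.152) or with the length and GC trend removed (0.121). Tgfbr1, which encodes the partner receptor, differed by -0.12 ± 0.10 (adjusted p = 0.510).

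Part of the genes of cell division rose. Of 42 mitosis genes tested 15 rose and none fell (median 1.78), and of 36 genes of replication licensing and DNA synthesis 5 rose and none fell (median 0.52). Most mitosis genes were scarce: the whole list summed to 5005 to 5487 normalized counts at 8 weeks and 5179.9 to 5994 at 52 weeks, and the ages overlapped. Most of this came from the spindle checkpoint gene Bub3, which had 4065, 4032 and 3925 and 3639, 3550.3, 3201, 3491 and 3406 (-0.21 ± 0.07, adjusted p = 0.0691), every 8-week library above every 52-week one. Without Bub3, a choice made after seeing the data, the list summed to 1019.7 to 1423 at 8 weeks and 1629.6 to 2794 at 52 weeks, with no overlap. The mitosis count was 8 without 8-week female 3, 9 without 8-week female 4, 9 with the replicate number as a block term and 6 in edgeR, and 1 gene was lower in DESeq2 and with the 8 female libraries fitted alone.

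Top2a, the topoisomerase that untangles chromosomes (chromosome 11, 98992943 to 99024189, minus strand), had 40.2, 1.01 and 0 normalized counts at 8 weeks and 87.1, 94.2, 184, 23.3 and 125 at 52 weeks (4.31 ± 0.85, adjusted p = 0.00236). The groups overlapped, because 8-week female 1 lay above 52-week female 5, while 8-week females 3 and 4 had 1 read or none. Mki67, the proliferation marker Ki-67, had 14.5, 0 and 0 and 17.2, 34.0, 76.6, 52.9 and 31.7 (3.96 ± 0.90, adjusted p = 0.00724), and its reads at 8 weeks came from female 1 alone. For Mki67 the call was lost with 8-week female 3 or 4 left out (adjusted p = 0.0532 to 0.0601) or in edgeR (0.0505). Ccnb2, cyclin B2, had 12.3, 3.04 and 9.97 and 51.6, 31.2, 77.8, 39.2 and 113 (2.77 ± 0.57, adjusted p = 0.00332) with no overlap. Top2a and Ccnb2 passed under every alternative run. Hmmr, a spindle protein gene (3.94 ± 0.96, adjusted p = 0.0111), Prc1, of the spindle midzone (3.31 ± 1.00, 0.0363), and Kif2c, a kinesin that takes microtubules apart (3.23 ± 0.88, 0.0220), also rose. The call of Hmmr was lost with 8-week female 3 or 4 left out (adjusted p = 0.0755 to 0.0857), in edgeR (0.0842) or with the replicate number as a block term (0.0585). Prc1 did not pass with 8-week female 3 or 4, or 52-week female 2, 4, 5 or 6 left out (adjusted p = 0.0515 to 0.248) or under 5 settings of the processing (0.0516 to 0.162). Kif2c missed the threshold without 8-week female 1 (adjusted p = 0.217), in edgeR (0.113) or with the 8 female libraries fitted alone (0.0509).

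Among replication genes, subunits of the MCM helicase that licenses origins rose by moderate amounts from well measured levels. Mcm2 (chromosome 6, 88883474 to 88898780, minus strand) had 278, 211 and 249 at 8 weeks and 872, 771, 597, 344 and 578 at 52 weeks (1.30 ± 0.25, adjusted p = 0.00195). Mcm3 had 1819, 1931 and 1941 and 2953, 2957, 2508, 2342 and 2694 (0.50 ± 0.11, adjusted p = 0.00440). Both were clear of overlap and passed under every alternative run. The list's count was 2 without 8-week female 3 or 8-week female 4, and 3 without 52-week female 4, with the replicate number as a block term and in edgeR. Mcm5 rose by 0.94 ± 0.24 (adjusted p = 0.0154; 0.0697 without 8-week female 3 and 0.0588 without 8-week female 4) and the ribonucleotide reductase gene Rrm2 by 2.95 ± 0.90 (adjusted p = 0.0373). For Rrm2 the call was lost with 8-week female 3 or 4, or 52-week female 2, 4, 5 or 6 left out (adjusted p = 0.0520 to 0.321) or under 6 settings of the processing (0.0695 to 0.208). Of 17 genes of cell cycle inhibition and senescence 1 rose and 3 fell (median -0.03), and the rise was lost without 8-week female 1 or 3, in edgeR, in DESeq2 and with the replicate number as a block term. Btg1, an anti-proliferative gene, fell from 5166, 5057 and 5556 to 3134, 3568, 3737, 4172 and 3735 (-0.52 ± 0.09, adjusted p = 4.91e-04) and the cyclin G2 gene Ccng2 by 0.45 ± 0.09 (adjusted p = 0.00193), under every alternative run. Cdkn1a, the inhibitor p21, differed by -0.05 ± 0.27 (adjusted p = 0.930).

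Promoters of risen genes of both lists are shown for the letters of cell cycle motifs searched in them. The letters TTTGAA, a form of the cell cycle genes homology region (CHR), were found on either strand within 250 bases upstream of the start in 6 of the 11 risen mitosis genes that have a promoter in the RefSeq table (GRCm38.p6), in 11 of the 35 tested mitosis genes with one, and in 18.26% of all 27025 genes there. CCAAT was found in 9 of these 11, in 25 of the 35 and in 37.49% of all, so the risen genes were close to their own list in CCAAT. Capitals mark CHR letters (TTTGAA or TTCGAA) and CCAAT boxes of either strand, none of which overlap, in the first pair of sequences, chr11:99024190-99024439 of Top2a and chr7:135716447-135716592 of Mki67, both on the minus strand. In the third, chr8:75109331-75109392 of Mcm5 on the plus strand, they mark 2 overlapping E2F forms, TTTCGCGC and, on the other strand, TTTGGCGC, which occur upstream of 0.2997% and 0.4847% of all genes. Each form was found in 1 of the 4 risen replication genes with a promoter and in 3 of the 31 tested ones. All sequences here and below lie before the RefSeq start of their gene, which for Tef is further downstream than the gene's start given with its values, and a match of letters is a description and not a site in use.
Top2a: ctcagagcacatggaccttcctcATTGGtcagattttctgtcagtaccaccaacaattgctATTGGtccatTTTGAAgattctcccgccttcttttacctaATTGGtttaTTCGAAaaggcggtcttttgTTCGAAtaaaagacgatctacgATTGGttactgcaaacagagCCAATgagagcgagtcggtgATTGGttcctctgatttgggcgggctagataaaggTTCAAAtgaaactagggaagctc
Mki67: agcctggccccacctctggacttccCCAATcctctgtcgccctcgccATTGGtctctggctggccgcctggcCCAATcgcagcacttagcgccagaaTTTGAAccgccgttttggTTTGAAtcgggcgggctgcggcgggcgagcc
Mcm5: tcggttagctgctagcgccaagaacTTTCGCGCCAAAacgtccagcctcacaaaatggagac

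The clock genes that rose were repressors and outputs, while the activators did not pass. Of 10 repressor genes 4 rose and none fell (median 0.68), of 11 genes of outputs and kinases 4 rose and none fell (median 0.08), and of 3 activator genes none passed by limma, edgeR or DESeq2 or at an unadjusted p below 0.05 (median -0.31). The count of risen outputs was 1 without 8-week female 1, and 2 without 8-week female 3, with the replicate number as a block term and with the 8 female libraries fitted alone. Per2 (chromosome 1, 91415982 to 91459324, minus strand) had 2.23, 44.6 and 21.2 normalized counts at 8 weeks and 96.2, 232, 105, 47.6 and 158 at 52 weeks (2.93 ± 0.61, adjusted p = 0.00399). Nr1d1, the repressor REV-ERB alpha (chromosome 11, 98767932 to 98775333, minus strand), had 53.6, 99.2 and 69.8 and 217, 160.1, 257, 191 and 243 (1.54 ± 0.33, adjusted p = 0.00488). Nr1d2, its sister REV-ERB beta, had 867, 829 and 949.7 and 1199.6, 1562, 1799, 1622 and 1369.7 (0.76 ± 0.17, adjusted p = 0.00602). In all 3 the ages did not overlap, and the calls held under every alternative run.

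Of the outputs Tef, a PAR bZIP transcription factor gene (chromosome 15, 81802421 to 81826863, plus strand), had 1229, 1199 and 1615 at 8 weeks and 2505, 2385, 2639, 2365 and 2652 at 52 weeks (0.91 ± 0.13, adjusted p = 1.14e-04), again with no overlap and under every alternative run. Its relatives Dbp (0.93 ± 0.26, adjusted p = 0.0238) and Hlf (1.15 ± 0.30, 0.0171) rose, as did the repressor Bhlhe40 (3.37 ± 0.96, 0.0271) and the kinase gene Wee1 (3.44 ± 0.96, 0.0238). The call of Dbp was lost with 8-week female 1 or 3 left out (adjusted p = 0.0994 to 0.107) or with the length and GC trend removed (0.0720). Hlf did not pass without 8-week female 1 (adjusted p = 0.173), with the 8 female libraries fitted alone (0.0773) or with the replicate number as a block term (0.0532). Bhlhe40 missed the threshold with 8-week female 3 or 4, or 52-week female 6 left out (adjusted p = 0.0618 to 0.2496) or under 5 settings of the processing (0.0503 to 0.191). For Wee1 the call was lost with 8-week female 1 or 3, or 52-week female 3, 4 or 6 left out (adjusted p = 0.0532 to 0.188), in edgeR (0.0682), with the 8 female libraries fitted alone (0.0713) or with the replicate number as a block term (0.0508). Per1 stood at 53.6, 50.6 and 59.8 and 88.2, 97.0, 112, 105 and 101 without overlap but missed the threshold (0.87 ± 0.31, adjusted p = 0.0768), and so did Per3 (0.59 ± 0.22, adjusted p = 0.0912). The activator genes Arntl (-0.48 ± 0.34, adjusted p = 0.423) and Clock (-0.31 ± 0.16, adjusted p = 0.239) did not pass. The labels used here give no hour of sampling. In 8-week males 2, 3 and 4 Per2 had 153, 59.3 and 158 normalized counts and Tef 2211, 1818 and 2586. Nr1d1 had 94.4, 52.1 and 171 there, and Nr1d2 1437, 959 and 1960. Per1 had 163, 297 and 171, and Per3 438, 301 and 280. For all of these but Nr1d1 every 8-week male lay above every 8-week female. The other risen clock genes, Dbp, Hlf, Bhlhe40 and Wee1, overlapped between the sexes at 8 weeks. Dbp, for example, had 198, 154 and 278 in these males and 125, 118 and 191 in the 8-week females. What set the 8-week females apart from these males in Per1, Per2, Per3, Nr1d2 and Tef was not tested.

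**Figure D4:**
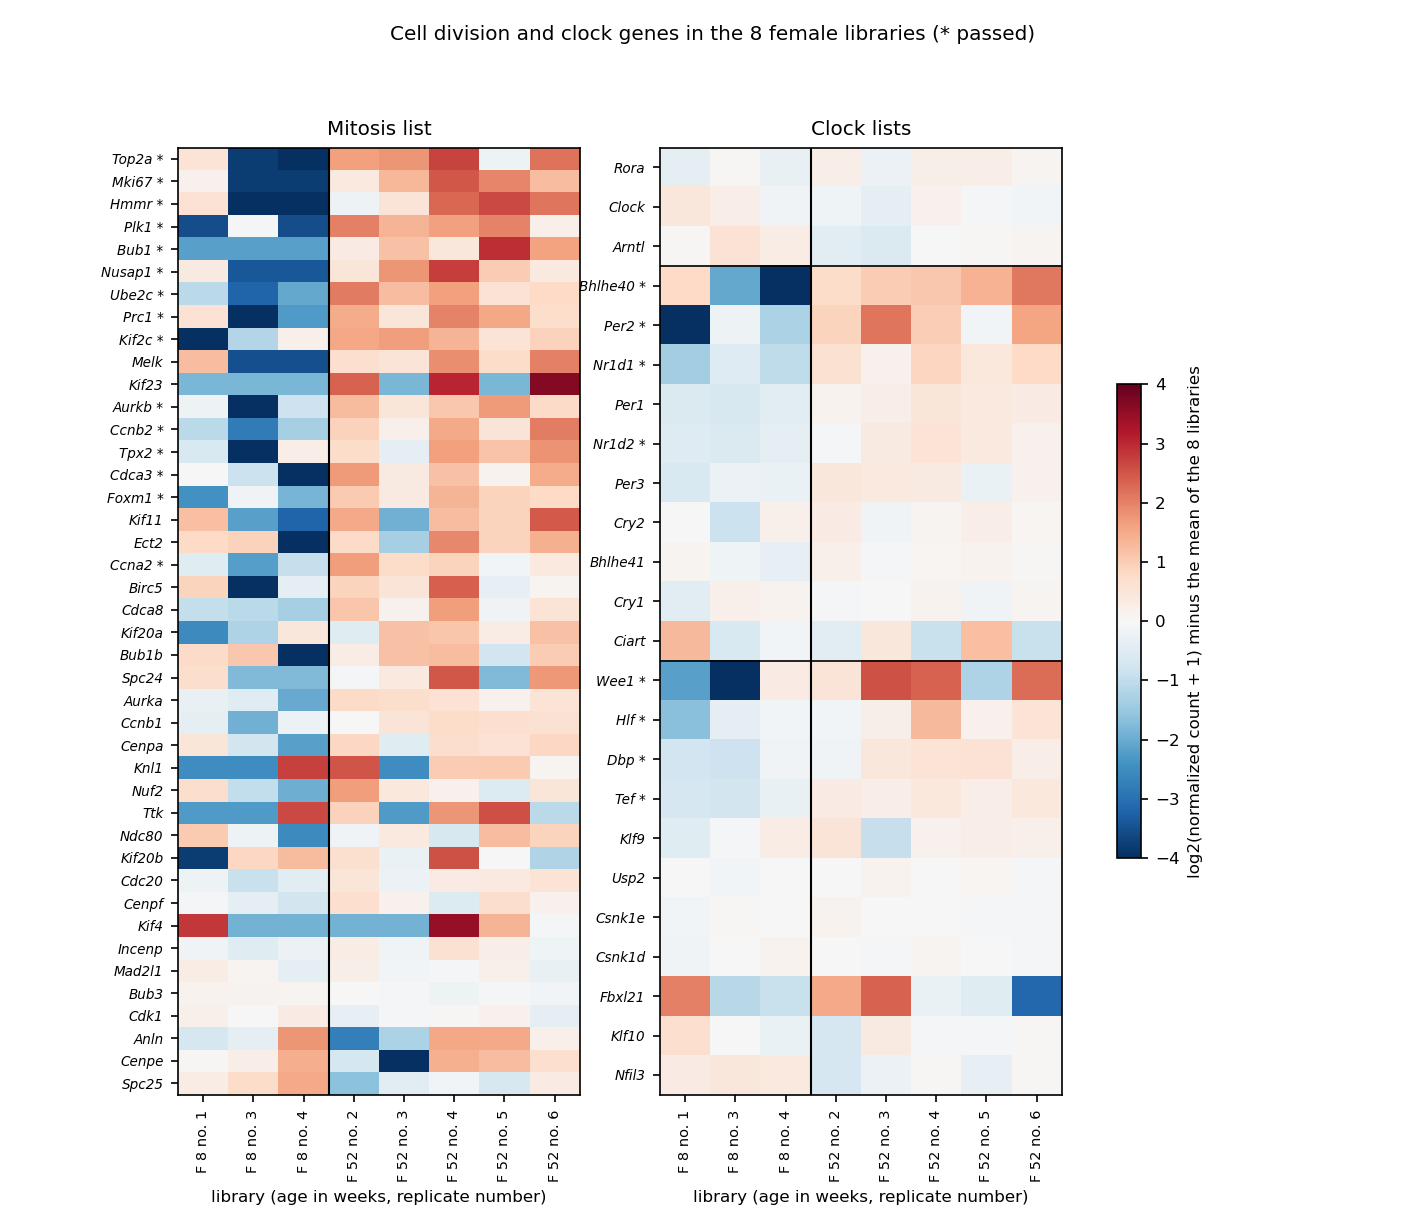
Mitosis (left) and clock genes (right; activators, repressors and outputs from top to bottom) in the 8 female libraries, coloured by log2(normalized count + 1) minus the mean of the 8, with an asterisk on genes that passed. Blue in the 3 libraries of 8 weeks and red in the 5 of 52 weeks marks the risen genes, and 8-week female 1 is pale or red for Top2a, Mki67 and Bhlhe40.

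Among risen clock genes a promoter window with a searched motif was found for Nr1d2 and Tef. Capitals mark in Nr1d2 (chr14:18239153-18239208, minus strand) the half-site AGGTCA that REV-ERB and ROR receptors bind, present in 15.76% of all genes, and in Tef (chr15:81802521-81802576, plus strand) the E-box CACGTG, present in 6.86%. Both strands were searched for these and for the D-box TTATGTAA. Of 4 risen repressor genes 2 had a promoter in the table, and of 4 risen outputs 3 had one. Among repressors the half-site was in 1 of the 2 and in 2 of the 8 tested with a promoter. The E-box was in 0 of the 2 and in 4 of the 8. Among outputs the E-box was in 1 of the 3 and in 1 of the 8 tested with a promoter, and the half-site in 0 and 1. The D-box was in 0 of the risen genes of either list.
Nr1d2: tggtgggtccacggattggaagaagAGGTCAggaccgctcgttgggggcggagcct
Tef: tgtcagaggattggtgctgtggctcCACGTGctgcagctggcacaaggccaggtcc

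The genes of protein folding that passed mostly fell. Of 22 cytosolic heat shock genes 3 fell and none rose (median -0.37), and of 27 genes of the unfolded protein response of the endoplasmic reticulum 5 fell and 1 rose (median -0.12). Manf, a secreted stress factor of that compartment (chromosome 9, 106838312 to 106891979, minus strand), had 5113, 4998 and 5523 normalized counts at 8 weeks and 3060.4, 3059.7, 3517, 3329 and 3455 at 52 weeks (-0.67 ± 0.10, adjusted p = 2.73e-04), with a wide gap between the ages and under every alternative run. Hsph1, a nucleotide exchange factor of Hsp70, had 1235, 1726 and 1407 and 393, 510.0, 715, 536 and 908 (-1.30 ± 0.33, adjusted p = 0.0135; 0.0664 without 8-week female 3). The co-chaperone genes Dnaja1 (-0.83 ± 0.25, adjusted p = 0.0334) and Chordc1 (-0.68 ± 0.21, 0.0414) fell, as did the chaperone partners Dnajb9 (-0.35 ± 0.10, 0.0272) and Dnajc3 (-0.28 ± 0.08, 0.0325), while Ern1, the stress sensor IRE1, rose by 0.74 ± 0.21 (0.0272). The call of Dnaja1 was lost with 8-week female 1, 3 or 4, or 52-week female 2, 3, 4 or 6 left out (adjusted p = 0.0511 to 0.110), with no filter on low values (0.0542) or with the length and GC trend removed (0.0717). Chordc1 did not pass with 8-week female 1, 3 or 4, or 52-week female 2, 3, 4 or 6 left out (adjusted p = 0.0596 to 0.111), with no filter on low values (0.0673) or with the length and GC trend removed (0.128). Dnajb9 missed the threshold with 8-week female 1, 3 or 4, or 52-week female 2 left out (adjusted p = 0.0645 to 0.0934) or with the length and GC trend removed (0.360). For Dnajc3 the call was lost with 8-week female 1 or 3, or 52-week female 2 or 6 left out (adjusted p = 0.0563 to 0.148), with the replicate number as a block term (0.121) or with the length and GC trend removed (0.149). The call of Ern1 was lost with 8-week female 4, or 52-week female 3, 4 or 6 left out (adjusted p = 0.0507 to 0.216) or with the 8 female libraries fitted alone (0.0608). Hspa5, the central chaperone BiP, was lower in every 52-week library but did not pass (-0.36 ± 0.12, adjusted p = 0.0607), and Hsp90ab1 differed by -0.09 ± 0.18 (adjusted p = 0.813). The heat shock count of falls rested on most single libraries. It was 0, with 1 rise, without 8-week female 3, 1 without 8-week female 1 or 4, without 52-week female 2, 3, 4 or 6 and with the length and GC trend removed, and 7 with the 8 female libraries fitted alone. The unfolded protein count of falls was 1 without 8-week female 1 or 3 or 52-week female 2, 2 without 8-week female 4, 3 without 52-week female 4 or 6 and with the length and GC trend removed, 9 in DESeq2 and 10 with the 8 female libraries fitted alone.

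A heat shock element (GAANNTTC) lay upstream of Dnaja1 and an ER stress element (CCAAT, 9 bases, then CCACG) upstream of Dnajc3, the 1 fallen member of each list with the list's motif. The first occurs in 7.726% of all genes and in 6 of the 17 heat shock genes with a promoter, the second in 0.1295% of all genes and in 8 of 24 unfolded protein genes with a promoter, 1 of which fell. Capitals mark the fixed letters of each element, at chr4:40722319-40722376 for Dnaja1 and chr14:118937802-118937870 for Dnajc3, both on the plus strand.
Dnaja1: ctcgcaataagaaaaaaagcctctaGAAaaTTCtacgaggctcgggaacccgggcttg
Dnajc3: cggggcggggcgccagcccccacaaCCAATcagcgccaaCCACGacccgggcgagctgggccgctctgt

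Surface receptors of signalling changed in both directions. Of 18 chemokine and chemoattractant receptor genes 2 fell and none rose, while 2 rose in DESeq2, with equal library totals and with the 8 female libraries fitted alone. Beside Ccr1 this was Gpr183, the oxysterol receptor EBI2, which fell from 11701, 11145 and 12267 to 9189, 9885, 8622, 9367 and 8398 (-0.37 ± 0.08, adjusted p = 0.00386). Of 21 other G protein-coupled receptor genes 5 rose and 4 fell, or 2 fell without 8-week female 1 and with the length and GC trend removed. Gpr65, a proton sensor, rose from 133, 222 and 151 to 258, 624, 403, 582 and 435 (1.41 ± 0.26, adjusted p = 0.00142). Adrb1, the beta-1 adrenergic receptor, rose from 286, 388 and 334 to 772, 515, 620.2, 708 and 637 (0.95 ± 0.20, adjusted p = 0.00348), and Gpr84, a receptor for medium-chain fatty acids, by 0.51 ± 0.12 (adjusted p = 0.00690). Lpar6, a lysophosphatidic acid receptor, fell by 0.53 ± 0.11 (adjusted p = 0.00390; 0.0911 with the length and GC trend removed). In none of these did the ages overlap. Of 14 purine genes P2rx4, an ATP-gated channel, rose (0.48 ± 0.09, adjusted p = 0.00165) and P2ry12 fell. Of 22 potassium and chloride channel genes 3 rose: Kcnj12, the volume-regulated channel subunit Lrrc8d (0.49 ± 0.09, adjusted p = 0.00209) and the proton channel Hvcn1 (0.33 ± 0.08, adjusted p = 0.0160). Hvcn1 did not pass with 8-week female 3 or 4 left out (adjusted p = 0.0612 to 0.0614) or with the length and GC trend removed (0.127).

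Secreted signals and immune receptors changed in a similar mixed way. Of 25 chemokine and cytokine genes 5 rose and 1 fell (median 0.48). The count of rises was 2 without 8-week female 3 or 8-week female 4 and 3 without 52-week female 5 or 52-week female 6. Ccl9 fell from 6455, 7863 and 8399 to 5256, 4218, 4619.8, 5004 and 3956 (-0.71 ± 0.13, adjusted p = 0.00125), and Cxcl16, a membrane-bound chemokine, rose from 1955, 1875 and 1994 to 2327, 3022, 2335, 2891 and 3458 (0.51 ± 0.13, adjusted p = 0.0114). Both held under every alternative run, as did Tnfsf8. Ccl3 (0.83 ± 0.25, adjusted p = 0.0330), the growth factor gene Csf1 (0.66 ± 0.19, 0.0306) and the interferon-induced chemokine Cxcl10 (3.93 ± 1.01, 0.0154) rose with calls that more settings lost. Ccl3 missed the threshold with 8-week female 3 or 4, or 52-week female 2, 5 or 6 left out (adjusted p = 0.0635 to 0.129), with no filter on low values (0.0517) or with the replicate number as a block term (0.0812). For Csf1 the call was lost with 8-week female 1, 3 or 4, or 52-week female 3, 5 or 6 left out (adjusted p = 0.0542 to 0.118) or with the length and GC trend removed (0.133). The call of Cxcl10 was lost with 8-week female 3 or 4 left out (adjusted p = 0.0535 to 0.169), in edgeR (0.130), in DESeq2 (0.165) or with the 8 female libraries fitted alone (0.0630).

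Of 24 Fc and Siglec receptor genes 3 rose and 2 fell. The falls were 1 without 8-week female 1 or 4 or 52-week female 2 or 6 and with the replicate number as a block term, and 0 with the length and GC trend removed. Beside Cd22, the inhibitory receptor gene Pirb rose from 251, 232 and 221 to 333, 605, 453, 627 and 445 (1.03 ± 0.20, adjusted p = 0.00236), under every alternative run. The inhibitory Fc receptor gene Fcgr2b rose by 0.32 ± 0.08 (adjusted p = 0.0117; 0.0610 without 8-week female 3), and the lectin receptor gene Clec4a2 fell by 0.46 ± 0.10 (adjusted p = 0.00659; 0.168 with the length and GC trend removed). Of 19 scavenger and phagocytic receptor genes 4 rose and none fell (median 0.51), or 2 rose without 8-week female 4. Stab1, a scavenger receptor with many ligands (chromosome 14, 31139013 to 31168641, minus strand), had 3338, 3668 and 3149.5 normalized counts at 8 weeks and 8179.7, 5208, 6718, 5505 and 6146 at 52 weeks (0.89 ± 0.11, adjusted p = 2.24e-05). Its ages were clearly separate, with 52-week female 2 highest. Of 33 genes of Toll-like receptors and NF-kB 3 rose and 1 fell, with 1 rise left without 52-week female 5, without any 1 of the 8-week females and with the replicate number as a block term. Ly96, the MD-2 partner of Tlr4, fell by 0.64 ± 0.12 (adjusted p = 0.00180; 0.365 with the length and GC trend removed), and Tlr13, a sensor of bacterial ribosomal RNA, rose by 0.37 ± 0.09 (adjusted p = 0.00910; 0.0727 without 8-week female 4). Of 15 complement genes 1 passed, the integrin subunit gene Itgb2 (0.31 ± 0.08, adjusted p = 0.0121). Itgb2 did not pass without 8-week female 4 (adjusted p = 0.0779) or with the length and GC trend removed (0.104).

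Of 47 lysosomal genes 9 rose by small amounts and none fell (median 0.15). Sgsh, which degrades heparan sulfate, had 540.4, 422 and 356 normalized counts at 8 weeks and 699, 789.9, 743, 705 and 765 at 52 weeks (0.77 ± 0.18, adjusted p = 0.00846), and the acid glucosidase gene Gaa 5309.6, 5129.8 and 4807 and 6817, 6544, 6520.1, 7249.9 and 8276 (0.47 ± 0.09, adjusted p = 0.00177). The cholesterol exporter gene Npc1 (0.43 ± 0.11, adjusted p = 0.0137) and the proton pump genes Atp6v0d1 (0.42 ± 0.09, 0.00692) and Atp6v0a1 (0.35 ± 0.09, 0.0194) rose as well. None of the 5 overlapped between the ages. The count was 4 without 8-week female 4 and 5 without 8-week female 1. Sgsh missed the threshold without 8-week female 4 (adjusted p = 0.0715) or with the length and GC trend removed (0.0553). For Gaa the call was lost with the length and GC trend removed (0.232). The call of Npc1 was lost without 8-week female 4 (adjusted p = 0.102). Atp6v0d1 did not pass without 8-week female 1 (adjusted p = 0.0791). Atp6v0a1 missed the threshold with 8-week female 1 or 3 left out (adjusted p = 0.0656 to 0.0928) or with the replicate number as a block term (0.0597).

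Metabolic lists were near the background. Of 24 cholesterol synthesis genes 2 rose: the regulator Srebf2 (0.73 ± 0.16, adjusted p = 0.00659; 0.0677 with the length and GC trend removed) and Sqle, squalene epoxidase, with 38.0, 13.2 and 27.4 and 76.8, 107, 72.7, 46.6 and 92.5 (1.63 ± 0.42, adjusted p = 0.0154; 0.109 without 8-week female 3). Of 25 genes of lipid export and storage 2 rose and 1 fell, with 1 rise left and no fall without 8-week female 1 or 4 or 52-week female 2 or 3, and of 21 glycolysis genes 1 rose. None of 40 nuclear genes of the respiratory chain (median -0.14) and none of 40 ribosomal protein genes (median -0.21) passed by limma or edgeR, although only 2 and 4 of them lay above 0. DESeq2 called 2 and 0 of them, and 8 and 3 had an unadjusted p below 0.05. With the 8 female libraries fitted alone 3 respiratory chain genes were lower, and 1 was with the length and GC trend removed. Of 24 genes of dissociation and immediate early response 1 rose and 1 fell. Of 16 glucocorticoid-responsive genes 1 passed, Txnip, a redox regulator that fell by 0.41 ± 0.10 (adjusted p = 0.00984; 0.0562 without 8-week female 1).

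How far the female step was shared by males was asked with libraries that the 2 steps do not share. In males of the same ages (5 against 3) 171 genes were higher and 51 lower at 52 weeks, 1.77% of those tested (1.36% higher and 0.406% lower). Of the called genes 117 had the same direction in both sexes, 9.84% of the female and 52.7% of the male list, and 2 had opposite directions. The genes higher in females had a median log2 difference of 0.76 in females and 0.19 in males, and those lower in females had -0.45 and -0.09. The female values chose these genes, so their medians describe and do not test a difference. Kcnj12 (male log2 difference 6.09 ± 0.56), Ildr2 (3.88 ± 0.37), Dlg5 (5.85 ± 0.68), Gpr165 (-1.69 ± 0.23) and Rgs7bp (-1.63 ± 0.26) passed in males too and in the same direction. In males 7 mitosis genes (median 2.15) and 7 interferon genes (median 1.12) rose and 4 heat shock genes fell (median -0.56). Of the clock lists 0 of 10 repressors (median 0.11) and 1 of 11 outputs and kinases (median 0.08) rose in males. Whether these lists' steps differ between the sexes was not tested as a whole.

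The difference between the female and the male step passed in 49 genes, 0.39% of those tested, 33 with the more positive (0.263%) and 16 with the more negative step in females (0.127%). In 41 of the 49 the step had passed in females only, in 3 in both sexes, in 4 in males only and in 1 in neither. The count was 22 without 8-week female 1, 37 without 52-week female 2 (the library with few Xist reads), 22 with the replicate number as a block term and 24 with the length and GC trend removed. DESeq2 called 240 and an unadjusted p below 0.05 was reached by 1560. Male libraries were not left out in turn. The genes named from here on were picked from the 49 after their values were seen.

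Among genes with the more positive step in females, Lag3 had 678 ± 107 normalized counts in 8-week females and 2562 ± 368 in 52-week females but 1804 ± 205 and 1919 ± 400.4 in males, a difference between the steps of 1.85 ± 0.23 (adjusted p = 1.96e-04). The females thus lay below the males at 8 weeks and above their mean at 52 weeks. Pde2a rose in both sexes, by 3.02 ± 0.14 in females and 1.69 ± 0.14 in males, and the steps differed by 1.33 ± 0.20 (adjusted p = 0.00135). Adrb1 rose in females and fell in males, from 988 ± 184 to 543 ± 115, and the steps differed by 1.82 ± 0.28 (adjusted p = 0.00135). Stab1 was at 6418 ± 793 and 5447 ± 445 in males (1.13 ± 0.16, adjusted p = 7.77e-04). Lars2 was at 7224 ± 438 and 7921 ± 989.8 (1.60 ± 0.23, adjusted p = 7.77e-04) and Tmbim6 at 9271 ± 753 and 8182 ± 676 (1.02 ± 0.10, adjusted p = 6.82e-06). Gnb2, the beta-2 subunit of G proteins, rose by 0.62 ± 0.08 in females and differed between the steps by 0.73 ± 0.12 (adjusted p = 0.00224). These 7 held under every alternative run.

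Of the TGF-beta genes that rose in females, 2 were also in this set. Tgfb1 was at 5117 ± 955 and 5019 ± 452 in males, and the steps differed by 0.83 ± 0.15 (adjusted p = 0.0130; 0.0571 without 8-week female 1). Itgb5 had steps that differed by 0.53 ± 0.08 (adjusted p = 0.00135; 0.172 with the length and GC trend removed). Snx29, a sorting nexin gene, fell in females from 1309.7 ± 99.3 to 692 ± 68.5 and not detectably in males (-1.02 ± 0.21, adjusted p = 0.0298). For Snx29 the call was lost with 8-week female 1 or 4, or 52-week female 4 or 6 left out (adjusted p = 0.0525 to 0.0878). The tetraspanin gene Cd9 (-0.57 ± 0.12, adjusted p = 0.0333) and the matrix protein gene Npnt (-1.005 ± 0.19, adjusted p = 0.0130) entered the set by rises in males, with female differences of -0.02 ± 0.09 and -0.40 ± 0.13 that did not pass. The call of Cd9 was lost with 8-week female 1 or 4, or 52-week female 2, 3 or 4 left out (adjusted p = 0.0550 to 0.112), with the replicate number as a block term (0.0949) or with the length and GC trend removed (0.305). Npnt did not pass without 8-week female 1 (adjusted p = 0.0571). The rod genes Gnat1 and Prph2, with 0 normalized counts in any male of 8 or 52 weeks, were among the 49 too, but they entered the test only through the 8-week females, so no test of them is given.

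**Figure D5:**
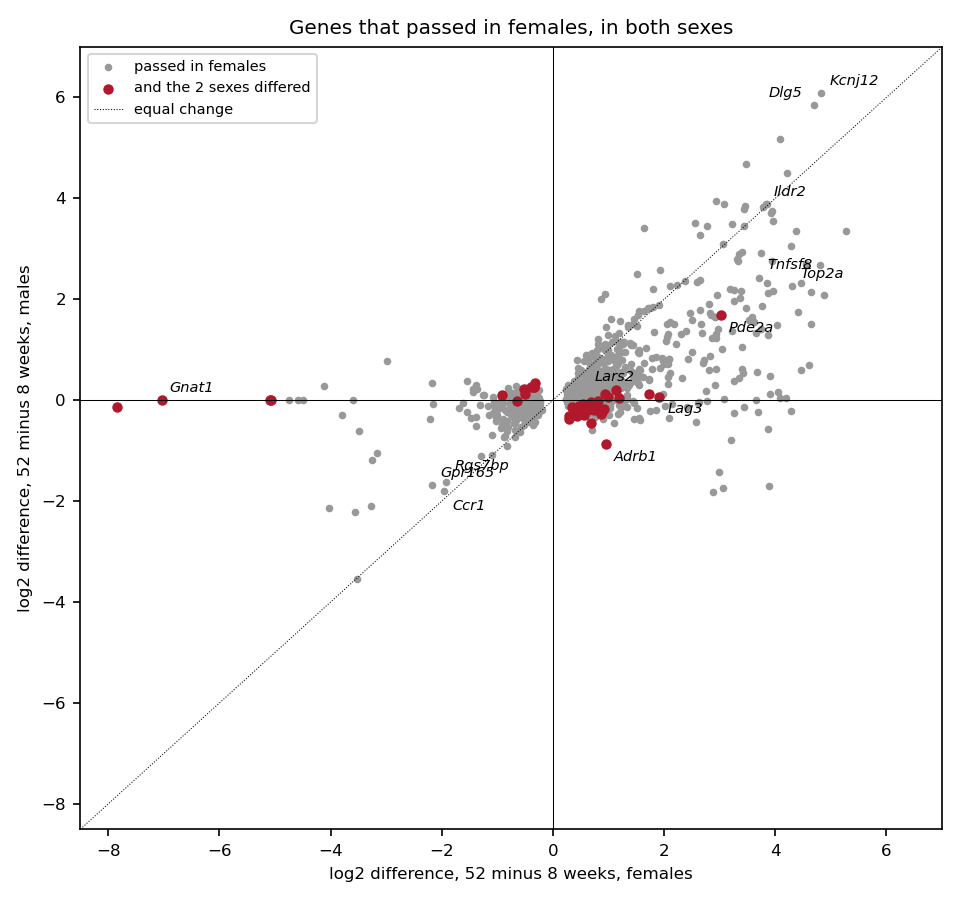
Log2 difference of 52 minus 8 weeks in females (horizontal) and males (vertical) for the 1189 genes that passed in females, in red where the 2 steps also differed between the sexes, with a dotted line at equal change. Kcnj12, Dlg5, Ildr2 and Gpr165 lie near the line, and Gnat1, Lag3 and Lars2 lie near the horizontal axis. Gnat1 entered the test only through the 8-week females, so its point and colour describe its values and are no test result.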

How the data were processed

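RNA-seq libraries of sorted mouse microglia were deposited as 1 table of 18072 genes in 22 libraries. The deposited signal is the read count per gene divided by 1 size factor per library, a step that the values show, and 100.0% of values became whole reads, within 0.01 reads, once it was undone. Per the submitters' processing notes the authors used STAR 2.5.2 and the build mm10, DESeq2 1.32.0 in R 4.1.0, and Trim Galore 0.4.3, with FastQC 0.67 and MultiQC 1.5.0. Which tool counted reads, its annotation and its strand setting were not stated in the labels or the file.

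Groups came from the sex and age labels. Genes with a value of 10 or more in at least 3 of 22 libraries (12552) were fitted with limma 3.58.1 (R 4.3.3) on log2(value + 1), with 6 group means, a trended variance and Benjamini-Hochberg adjustment over all of them at 0.05. The females' step, the males' step and their difference were contrasts of that fit. Exact permutation tests and counting intervals were run in numpy 2.4.6 and scipy 1.17.1, and the procedure was checked on simulated data. Alternatives were pseudocounts of 0.25 and 8, no filter, TMM factors, equal totals, edgeR 4.0.16 and DESeq2 1.42.0 on the recovered reads, the compared libraries alone, replicate number as a block, and each of the 8 female libraries left out. Removal of each library's trend with transcript length and GC content, and thinning to the lowest depth of the 8 (18545979 reads) were chosen after seeing the data. Named genes were, per direction, up to 14 that passed with the largest difference, non-overlapping ages and a mean of at least 50 at the higher age (predicted genes and pseudogenes left out), up to 5 members per list, and a set of known microglial genes whatever their values; others are named from the lists or, where stated, after their values were seen. The members and the 48 gene lists were chosen with earlier results of these data known. Positions are those of GENCODE M21 genes (GRCm38), matched for 97.3% of genes, and promoters those of RefSeq (GRCm38.p6). Depth was 18545979 to 34371851 reads in the 8 libraries and limits genes of few reads. Mrc1, Lyve1 and Ccr2 were not analysed here, and some genes, which the lists leave out, are not reported here.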

Additional observations from a re-analysis of the deposited data

Results flagged for a closer look

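Among groups of 5 libraries, 5 of 135 values tested had 1 library whose gap to its nearest neighbour was over 0.71 of the group's range, and chance flags about 1 in 20. The depth of 52-week female 3 was 34371851 reads (34.4 M), against 18545979 to 23010467 in the others. Gnat1 had 0.693 normalized counts in 52-week female 3 (1 read) and none in the other 4. Prkaa2 reached 155 in 52-week female 6, S100a9 reached 652 in 52-week female 2, and Syp reached 199 in 52-week female 5.

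The difference between the female and the male step passed by limma with adjustment for 14 genes described here. It was positive for Adrb1 (1.82), Gnb2 (0.73), Itgb5 (0.53), Lag3 (1.85), Lars2 (1.60), Pde2a (1.33), Stab1 (1.13), Tgfb1 (0.83) and Tmbim6 (1.02). It was negative for Cd9 (-0.57), Npnt (-1.005) and Snx29 (-1.02). The rod genes Gnat1 (-7.04) and Prph2 (-5.08) make up the rest of the 14 and are not counted as test results. Both rod genes reached 10 normalized counts in the 8-week females alone and entered the test only through them, so their values describe these libraries and support nothing.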

How the results depend on the processing

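Of 19 alternatives, 17 were planned and 2 (the length and GC trend, thinning) were added after seeing the data. When 1 female library was left out there were 437 to 674 higher genes, 199 to 400 lower genes, and 22 to 59 genes whose step differed between the sexes. With the replicate number as a block these counts were 493, 299 and 22. Only the numbers 3 and 4 occur at both ages, their deviations from the group means correlated at 0.0406 and -0.0176, and so they were not treated as pairs. With the length and GC trend removed 284 genes were lower and 24 differed between the sexes. The latter count was 81 with no filter and 240 by DESeq2. edgeR gave 652 higher, 408 lower and 40 differing genes, and thinned libraries 749, 418 and 45. Of 124 single results that passed, 60 passed under every alternative run and 64 were lost under at least 1, and none changed sign. The cause of these differences was not tested. TMM factors and equal totals moved the median of all genes by less than 0.1. The sign of a list's median changed with the length and GC trend removed for homeostatic genes, TGF-beta receptors and histones. Genes of a few reads, such as the rod genes at 52 weeks and mitosis genes at 8 weeks, are limited by depth.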
